A study of Mus musculus with 22 samples.

Results

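The genes described here were 9 markers of striatal projection neurons: the dopamine receptors *Drd1*, *Drd2* and *Drd3*, the adenosine receptor *Adora2a*, the peptide precursors *Penk*, *Pdyn* and *Tac1*, and the intracellular signalling genes *Ppp1r1b* and *Rgs9*. They were taken as a list of direct and indirect pathway genes and looked up by Ensembl identifier in the tables of all 22 samples. All 9 were found among the 39179 genes listed there. The list was compared between ventral striatum and prefrontal cortex and between *Phf8* knockout and wild type within each tissue. The rule itself used no measured value, and the list was drawn up with earlier results of these data known.

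Striatal projection neurons are the GABAergic output cells of the striatum, and they fall into a direct and an indirect pathway. Direct pathway cells carry the D1 dopamine receptor, which raises cAMP, and make dynorphin and substance P. Indirect pathway cells carry the D2 receptor, which lowers cAMP, together with the adenosine A2a receptor, which raises it, and make enkephalin. Both kinds contain DARPP-32, the product of *Ppp1r1b*, which integrates dopamine signals through protein kinase A and protein phosphatase 1, and the striatal form of RGS9, which speeds the shut-off of inhibitory G proteins. The D3 receptor is found mainly in the ventral striatum, and peptides such as enkephalin are also made by cortical interneurons.

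RNA-sequencing had been carried out on wild-type (WT) and *Phf8* knockout (KO) material of the B6x129SvJ background. The ventral striatum (STR, 3 WT and 3 KO) and the prefrontal cortex (PFC, 3 WT and 3 KO) had been dissected from mice aged 2 months. Neural progenitor cells (NPCs, 3 WT and 3 KO) had been grown as a monolayer from embryos, and embryonic stem cells (ESCs, 2 WT and 2 KO) had been derived from blastocysts. *Phf8* is an X-linked gene for a histone demethylase, and the KO allele lacks exons for part of its catalytic domain in all cells, having been made with Cre in clonally expanded ESCs. No WT group carried the deletion, and no sample had been treated. The sources used here do not say how many animals gave each brain sample, nor whether the samples of a group were separate animals or cultures, so the p-values measure the spread between these samples, which may be technical.

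Between 5898286 and 10148073 reads were counted on genes in the 12 brain samples, and between 11455757 and 15539811 in the 10 samples of cultured cells. *Phf8* itself was at 36.2 to 59.4 CPM (counts per 1000000 counts of the library, with TMM factors) in the WT samples and at 13.1 to 23.2 CPM in the KO samples. Every KO sample thus lay below every WT sample. All 6 markers of cortical glutamatergic neurons were lower in STR than in PFC in WT. Their sum was 998 to 1256 CPM in PFC WT and still 439 to 631 CPM in STR WT. The 5 ESC markers summed to 2538 to 3093 CPM in ESCs and to at most 6.09 CPM in the other tissues, and the 6 progenitor markers were highest in NPCs, at 5185 to 7574 CPM. STR KO replicate 1 stood apart from the other STR samples. Its 6 cortical markers summed to 79.1 CPM, against 425 to 631 CPM in the other 5, and its 10 hypothalamic markers summed to 230.5 CPM, against 17.8 to 40.5 CPM. The values of KO against WT in STR are given with and without it.

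The promoter windows of the members are shown for *Drd1*, *Drd2* and *Rgs9*, whose levels differed most between the genotypes in either brain region. *Tac1* is shown too. Among the 6 members whose windows could be searched, it alone had a cAMP response element half-site. RefSeq windows reached from 250 bases before to 50 bases after a transcription start, and 6 of the 9 members matched the table with 8 windows, *Drd1* and *Pdyn* having 2 each. *Adora2a*, *Ppp1r1b* and *Penk* are named only. Capitals mark the matches on either strand to the GC box GGGCGG, written as CCGCCC where it lies on the opposite strand. They also mark the half-site CGTCA of the cAMP response element and the TATA box, spelled TATAAA. All windows are written 5′ to 3′ along the gene, from build GRCm38.p6.
Drd1 window 1, chr13:54054731-54055030, minus strand: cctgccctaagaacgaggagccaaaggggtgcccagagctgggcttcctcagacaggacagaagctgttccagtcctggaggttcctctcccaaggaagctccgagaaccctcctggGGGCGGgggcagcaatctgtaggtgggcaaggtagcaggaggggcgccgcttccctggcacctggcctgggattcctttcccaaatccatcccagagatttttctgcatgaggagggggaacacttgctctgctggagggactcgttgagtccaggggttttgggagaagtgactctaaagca
Drd1 window 2, chr13:54055609-54055908, minus strand: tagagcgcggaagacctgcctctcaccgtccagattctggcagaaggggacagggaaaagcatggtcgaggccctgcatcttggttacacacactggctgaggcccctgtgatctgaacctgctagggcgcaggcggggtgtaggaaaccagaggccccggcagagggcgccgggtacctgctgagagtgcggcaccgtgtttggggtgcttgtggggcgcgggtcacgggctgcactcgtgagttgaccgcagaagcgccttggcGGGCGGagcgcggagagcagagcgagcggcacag
Drd2, chr9:49340153-49340452, plus strand: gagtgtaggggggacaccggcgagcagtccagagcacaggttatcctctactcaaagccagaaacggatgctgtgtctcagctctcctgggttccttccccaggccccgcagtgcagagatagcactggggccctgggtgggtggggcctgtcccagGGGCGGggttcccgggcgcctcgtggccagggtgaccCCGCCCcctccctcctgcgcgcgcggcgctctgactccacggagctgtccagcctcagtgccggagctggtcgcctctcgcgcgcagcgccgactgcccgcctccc
Tac1, chr6:7554811-7555110, plus strand: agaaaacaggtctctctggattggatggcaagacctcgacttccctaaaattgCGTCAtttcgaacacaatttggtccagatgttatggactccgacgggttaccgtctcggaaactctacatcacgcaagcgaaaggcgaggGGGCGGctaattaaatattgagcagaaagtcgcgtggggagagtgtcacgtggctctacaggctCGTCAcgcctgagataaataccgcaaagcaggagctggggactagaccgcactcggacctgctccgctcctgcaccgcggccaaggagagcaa
Rgs9, chr11:109298132-109298431, minus strand: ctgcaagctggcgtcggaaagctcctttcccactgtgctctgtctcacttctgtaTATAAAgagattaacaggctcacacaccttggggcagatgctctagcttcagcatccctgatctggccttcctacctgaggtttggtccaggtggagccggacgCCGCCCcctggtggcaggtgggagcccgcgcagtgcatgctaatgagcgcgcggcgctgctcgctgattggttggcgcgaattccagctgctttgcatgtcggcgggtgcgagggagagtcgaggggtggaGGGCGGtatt

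A GC box was found in 5 of the 8 member windows, those printed above, and in 35.7% of the 32851 mouse promoter windows. The half-site occurred in the *Tac1* window alone, at 2 positions, and in 20.8% of all windows. The whole element TGACGTCA, which contains the half-site, was in none of the 8 and in 1.79% of all. The TATA letters were in the *Rgs9* window, 195 bases before the start, and in 13.6% of all windows. An E-box (CANNTG) was in 3 member windows and in 72.3% of all, and an AP-1 site (TGANTCA) was in none and in 7.81% of all. The share of G and C ran from 42% in the *Drd3* window to 70.3% in the *Drd2* window, around a median of 52.7% over all windows. These are matches of letters, and none of them was tested for binding.

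The 9 genes lie on 8 chromosomes of GRCm38. *Drd1* (ENSMUSG00000021478) is on the minus strand of chromosome 13 from 54051183 to 54055705, *Drd2* (ENSMUSG00000032259) on the plus strand of chromosome 9 from 49340627 to 49408177, and *Drd3* (ENSMUSG00000022705) on the plus strand of chromosome 16 from 43754026 to 43822932. *Adora2a* (ENSMUSG00000020178) is on the plus strand of chromosome 10 from 75316877 to 75334784. The peptide genes are *Penk* (ENSMUSG00000045573, minus strand of chromosome 4 from 4133531 to 4138819), *Pdyn* (ENSMUSG00000027400, minus strand of chromosome 2 from 129686565 to 129699844) and *Tac1* (ENSMUSG00000061762, plus strand of chromosome 6 from 7554879 to 7565834). *Ppp1r1b* (ENSMUSG00000061718, plus strand, 98348404 to 98357796) and *Rgs9* (ENSMUSG00000020599, minus strand, 109225355 to 109298129) share chromosome 11. Counts are per gene, so isoforms such as the long and short forms of the D2 receptor were not told apart.

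The first comparison asked how far the members set the ventral striatum apart from the prefrontal cortex. In WT all 9 members were higher in STR, where 11.4% of the 15555 genes tested were called higher at an adjusted p-value under 0.05 (quasi-likelihood test of edgeR, adjusted over all genes by the Benjamini-Hochberg method). *Drd2* and *Drd3* passed the filter on low counts through the STR samples. Had they been as low in STR as in PFC, they would not have been tested, so their calls add no support. The differences were steepest for the receptor genes *Drd2*, *Drd3* and *Adora2a*. The PFC held 1.17% of the STR level of *Drd2* and 2.73% of that of *Adora2a*, and no read of *Drd3*. They were smallest for *Ppp1r1b*, *Penk* and *Pdyn*, of which the PFC held 31.8%, 22.6% and 21.8%. For every member the lowest STR sample lay above the highest PFC sample. The share of all genes that were apart in this way between the regions was not counted. Tissue RNA was measured, so fewer cells of a type and less RNA per cell cannot be told apart.

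**Figure D1:**
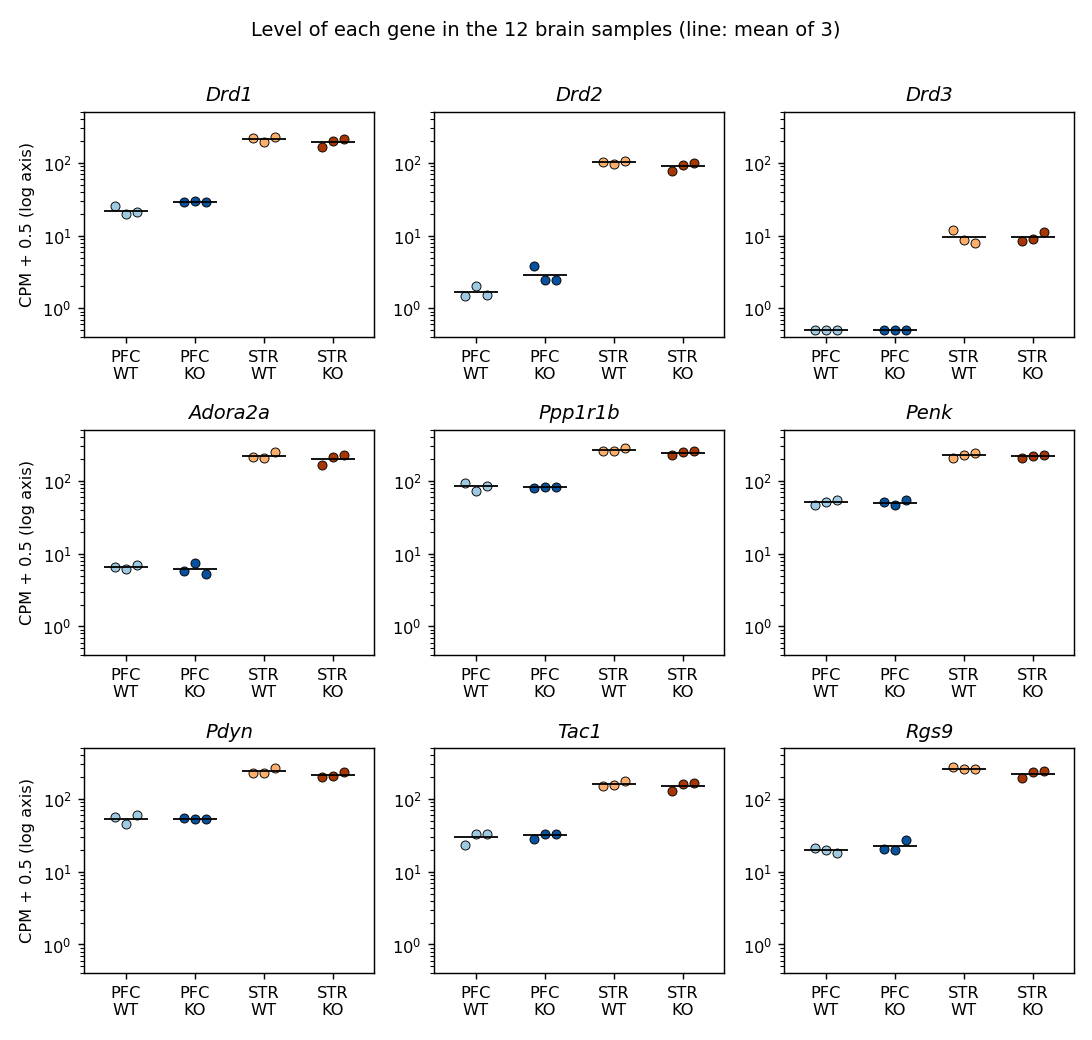
Level of each of the 9 genes in the 12 brain samples, as CPM + 0.5 on a log axis, with 1 point per sample (replicates 1 to 3 from left to right) and a line at the mean of 3. STR samples lie above PFC samples in every panel, and *Drd3* is at 0 counts in all 6 PFC samples.

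Among the dopamine receptors, *Drd1* was at 25.0, 19.4 and 20.6 CPM in the WT PFC samples and at 222, 194 and 230.1 CPM in the WT STR samples. The log2 fold change was 3.32 (SE 0.11), with an adjusted p-value of 3.2e-08 in edgeR. The gap between the regions was thus many times the spread within either. *Drd2* was at 0.981, 1.55 and 1.05 CPM in PFC, from 8, 16 and 6 counted reads, and at 103, 95.8 and 107 CPM in STR. Its log2 fold change was 6.35 (SE 0.15), and edgeR's adjusted p-value was 3.3e-09. By fitted fold change it ranked 24th of the genes tested. *Drd3* was absent from the counts of all 6 PFC samples and was at 11.4, 8.11 and 7.45 CPM in STR WT. Taking 3 reads in the summed PFC libraries of a genotype as the floor, the mean level was at least 73.0-fold higher in STR in WT and at least 72.4-fold higher in KO. That floor covers counting error only.

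The adenosine receptor gene *Adora2a* was at 6.13, 5.70 and 6.45 CPM in the WT PFC samples and at 213, 208 and 248 CPM in the WT STR samples. Its log2 fold change of 5.20 (SE 0.12, adjusted p = 3.3e-09 in edgeR) was the second highest of the members with reads in both regions. Of the members with reads in both regions, *Drd2* and *Adora2a* were thus the most unequal, followed by *Rgs9* and then by *Drd1*.

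The peptide precursors were less unequal. *Penk*, which encodes the enkephalins, was at 47.0, 51.8 and 54.2 CPM in PFC and at 209, 225 and 243 CPM in STR, a log2 fold change of 2.15 (SE 0.09). *Pdyn*, the dynorphin precursor, was at 55.8, 45.1 and 59.4 CPM in PFC and at 231, 231 and 272 CPM in STR, a log2 fold change of 2.21 (SE 0.11). *Tac1*, from which substance P is made, was at 22.9, 32.5 and 32.9 CPM in PFC and at 152, 155 and 175 CPM in STR, a log2 fold change of 2.45 (SE 0.13). All 3 passed edgeR's test, with adjusted p-values of 1.3e-07, 5.0e-07 and 5.4e-07, and their 95% intervals overlapped. The PFC kept 18.3% to 22.6% of the STR level of these peptides.

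The signalling genes lay apart from each other. *Rgs9* was at 20.7, 19.2 and 17.8 CPM in PFC and at 273, 257 and 260.4 CPM in STR, a log2 fold change of 3.77 (SE 0.09, adjusted p = 3.3e-09 in edgeR). *Ppp1r1b* was at 94.9, 73.6 and 84.5 CPM in PFC and at 257, 256 and 281 CPM in STR, a log2 fold change of 1.65 (SE 0.10, adjusted p = 1.5e-06 in edgeR). The *Ppp1r1b* value was the smallest regional difference of the 9, at rank 369 of the genes tested.

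The KO samples, which the WT comparison did not use, gave the same order of regions for all 9 members, among 13.9% of 15538 genes called higher in STR. The log2 fold changes in KO were 2.75 (SE 0.10) for *Drd1*, 5.24 (SE 0.19) for *Drd2* and 5.15 (SE 0.17) for *Adora2a*. They were 2.14 (SE 0.08) for *Penk*, 2.04 (SE 0.07) for *Pdyn* and 2.29 (SE 0.12) for *Tac1*, and 3.37 (SE 0.14) for *Rgs9* and 1.61 (SE 0.07) for *Ppp1r1b*. Adjusted p-values in edgeR ran from 9.2e-07 for *Adora2a* to 7.8e-05 for *Drd3*. *Drd3* again passed the filter on low counts through the STR samples alone, so its call adds no support. With the requirement of 10 counts in every sample, *Drd2* and *Drd3* in WT and *Drd3* in KO could not be tested, and the remaining 7 and 8 members were called.

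**Figure D2:**
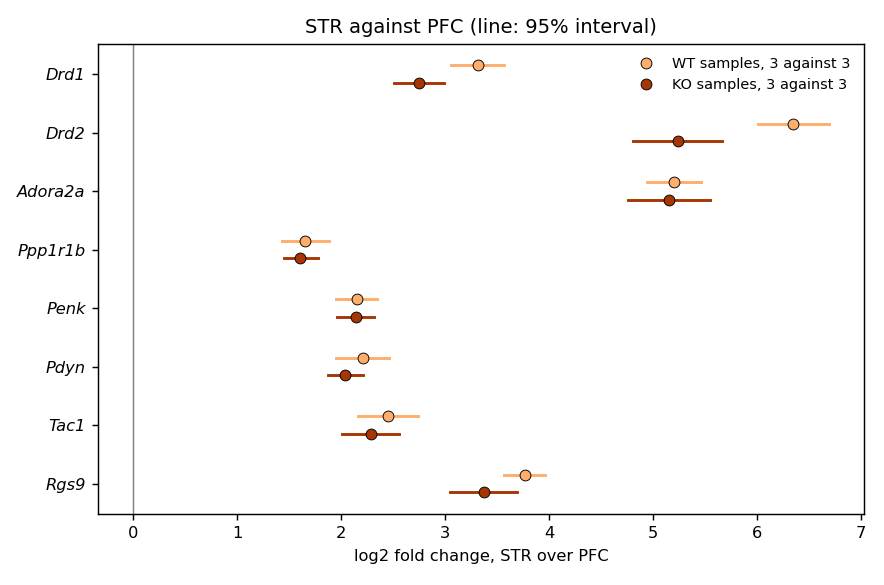
Log2 fold change of STR over PFC for 8 members in WT and in KO samples, with 95% intervals from edgeR. All intervals lie above 0, from *Ppp1r1b* at 1.65 and 1.61 to *Drd2* at 6.35 and 5.24, and *Drd3* is left out because its PFC counts are 0.

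How the members rank against each other can be read only per transcript length. In RPKM (CPM divided by the kilobases of exon of the gene), *Penk* led in STR WT with 138 ± 10.5 (SD, n = 3). It was followed by *Ppp1r1b* with 90.5 ± 4.86, *Pdyn* with 84.8 ± 8.14, *Adora2a* with 72.8 ± 7.10 and *Drd1* with 59.4 ± 5.18. *Tac1* with 47.2 ± 3.66, *Rgs9* with 41.2 ± 1.30 and *Drd2* with 40.0 ± 2.32 came next, and *Drd3* was lowest with 5.26 ± 1.25 (SD, n = 3 each). Neighbours whose sample ranges overlapped were *Ppp1r1b* and *Pdyn*, *Pdyn* and *Adora2a*, and *Rgs9* and *Drd2*. In PFC WT the order opened with the same genes, *Penk* at 31.2 ± 2.26 and *Ppp1r1b* at 28.8 ± 3.63 RPKM, whose ranges overlapped, and *Pdyn* at 18.5 ± 2.57 (SD, n = 3 each). *Adora2a* fell from the fourth place to the seventh there, at 1.99 ± 0.122 RPKM, behind *Tac1*, *Drd1* and *Rgs9* at 8.66, 5.97 and 3.01 RPKM. *Drd2* reached 0.468 ± 0.122 RPKM in PFC (SD, n = 3).

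The levels of direct and indirect pathway members relative to each other were read within each sample. On the log2(CPM + 0.5) scale, the mean of the direct pathway members (*Drd1*, *Pdyn* and *Tac1*) exceeded the mean of the indirect pathway members (*Drd2*, *Adora2a* and *Penk*) by 0.21 to 0.26 in the STR WT samples and by 1.83 to 2.06 in the PFC WT samples. In KO it exceeded them by 0.19 to 0.24 in STR and by 1.78 to 2.06 in PFC. The regions did not overlap and the genotypes did. With a pseudocount of 2 the PFC means were 1.63 in WT and 1.68 in KO, and the STR means stayed at 0.24 and 0.22. Within STR the CPM ratio of *Drd1* to *Drd2* was nearly constant, at 2.03 to 2.17 in WT and 2.11 to 2.15 in KO, although the level of each gene varied more. In PFC the same ratio ranged from 12.6 to 25.5 in WT and from 8.62 to 15.2 in KO, with few *Drd2* reads behind it. The peptides showed no such gap. The ratio of *Pdyn* to *Penk* was 0.871 to 1.19 in PFC WT and 1.03 to 1.12 in STR WT, and that of *Tac1* to *Penk* was lower in PFC WT, at 0.488 to 0.627, than in STR WT, at 0.688 to 0.729. The larger difference of the means in PFC thus lay in the low levels of *Drd2* and *Adora2a* there. Some single ratios did not overlap between the genotypes. *Pdyn* to *Penk* in STR was 0.956 to 1.02 in KO, just below the WT range. *Drd1* to *Adora2a* in PFC was 3.19 to 4.08 in WT and 4.34 to 5.91 in KO. The other ratios computed for these pairs and for *Drd1* to *Drd2* and *Tac1* to *Penk* overlapped, and no ratio was tested.

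The most abundant members in STR lay near the top of what the brain tables hold. In the STR WT samples *Penk* had 1051 to 1128 counts per kilobase of exon, and only 25 to 30 genes were higher. *Ppp1r1b* had 669 to 776, *Pdyn* 613 to 707, *Adora2a* 520 to 614 and *Drd1* 410 to 541 counts per kilobase. *Tac1*, *Rgs9* and *Drd2* had 287 to 395. *Drd3* was far lower, at 32.1 to 59.0 counts per kilobase, with 8849 to 10256 genes higher. The highest gene of any brain sample had 1749 to 2491 counts per kilobase, whereas the highest gene of the cultured samples had 34930 to 85650, with library totals of the same order. The 10 leading genes took 0.803% to 0.947% of the counts in brain and 3.40% to 4.92% in culture. The top of the range was thus narrow in the brain tables. Whether it shortened the regional fold changes of *Penk*, *Ppp1r1b*, *Pdyn* or *Adora2a* was not tested.

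**Figure D3:**
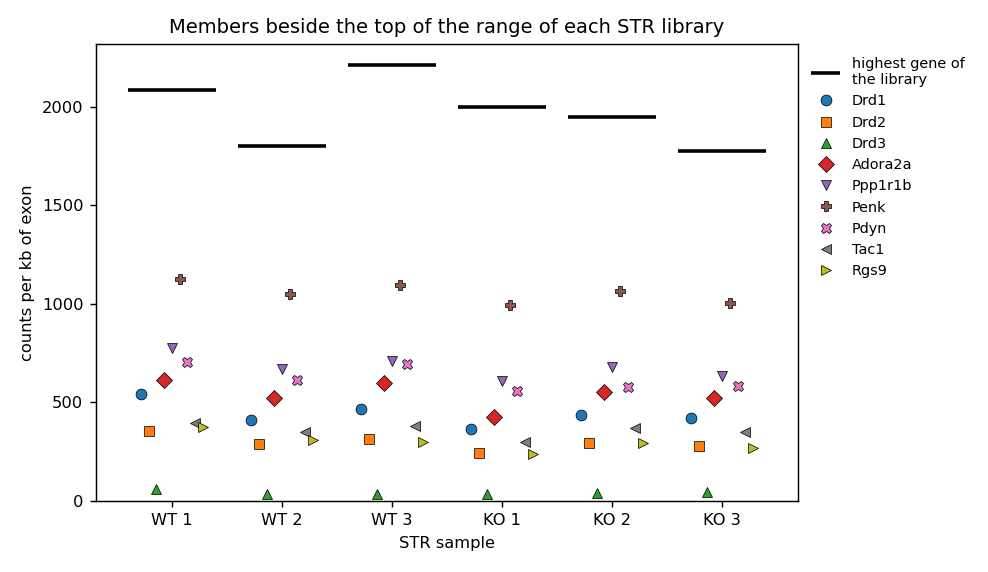
Counts per kilobase of exon of the 9 members in each STR sample, beside the highest gene of the same library (black line). *Penk* is the highest member in each sample, at 992 to 1128 counts per kilobase, and the highest gene lies at 1776 to 2211.

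Other genes of these neurons and of their signalling were read from further lists. All 13 markers shared by both kinds of projection neuron were called higher in STR in WT, with a median log2 fold change of 1.25 against 0.01 over all genes. *Six3*, a transcription factor of the striatal lineage, was at 0.131 CPM in PFC and 77.0 CPM in STR. The retinoid receptor genes *Rxrg* and *Rarb* were higher by 4.60 (SE 0.15) and 3.19 (SE 0.10) on the log2 scale, each with an adjusted p-value of 2.3e-08 in edgeR. Of 6 further direct pathway markers 4 were higher. Among them *Slc35d3*, a carrier needed for D1 receptor traffic, was at 1.46 CPM in PFC and 79.1 CPM in STR. *Isl1*, a transcription factor, was at 0.0990 CPM in PFC and 43.0 CPM in STR. *Six3* and *Isl1* too passed the filter on low counts through the STR samples alone. Of 5 indirect pathway markers tested 2 were higher and 1 was lower. The orphan receptor gene *Gpr6* was higher by 5.45 (SE 0.20) and *Sp9* by 2.02 (SE 0.18), while *Plxdc1* fell by 1.20 (SE 0.09) on the log2 scale.

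In the dopamine and cAMP cascade 12 of 19 genes tested were higher in STR in WT and none was lower, with a median log2 fold change of 0.75. They included *Gng7* (1.84, SE 0.08), a subunit of the G protein that couples D1 and A2a receptors to adenylyl cyclase, *Adcy5* (1.73, SE 0.08), the main striatal adenylyl cyclase, and the phosphodiesterase genes *Pde1b* (1.41, SE 0.08) and *Pde7b* (1.85, SE 0.11). The adjusted p-values of these 4 in edgeR ran from 2.1e-07 to 1.0e-06. Of the receptors for the peptides, 4 of 5 tested were higher and 1 was lower. The tachykinin receptor genes *Tacr1* and *Tacr3* were higher by 3.95 (SE 0.19) and 3.82 (SE 0.24) and the kappa opioid receptor gene *Oprk1* by 3.15 (SE 0.15) on the log2 scale, and the mu receptor gene *Oprm1* by 1.93 (SE 0.41) at 0.686 CPM in PFC and 2.68 CPM in STR. Of 7 enzymes that process the precursors none was called higher, 3 were called lower and 4 were not called, with a median log2 fold change of -0.11, where 13.0% of all genes tested were called lower in STR. *Pcsk1* fell by 1.11 (SE 0.09), *Pcsk2* by 0.33 (SE 0.10) and *Pam* by 0.27 (SE 0.07) on the log2 scale. Of 6 tested genes of dopamine synthesis, transport and the remaining receptors, 3 were higher, led by *Th*, the rate-limiting enzyme of dopamine synthesis, at 4.72 CPM in PFC and 18.1 CPM in STR. Markers of the cholinergic interneurons of the striatum, *Chat*, *Slc5a7* and *Lhx8*, were also higher in STR (3 of 3), and their summed level was 2.22 to 3.19 CPM in the PFC and 76.8 to 119 CPM in the STR samples.

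The second comparison asked whether loss of *Phf8* changed the members in the ventral striatum. None of the 9 was called, and none of the 15476 genes tested was (0.00% called in edgeR's quasi-likelihood test). At an unadjusted p-value under 0.05 stood 1346 genes, *Rgs9* alone among the members. DESeq2 called 53 genes and edgeR's exact test 104, with no member among them. The members' log2 fold changes ran from -0.23 to 0.00, with a median of -0.14 against 0.00 over all genes.

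*Rgs9* had the largest difference. It was at 273, 257 and 260.4 CPM in the WT samples and at 193, 237 and 242 CPM in the KO samples, so that every KO sample lay below every WT sample. Of the 15476 genes tested, 6.25% were lower in KO without overlap and 7.28% were higher without overlap. The log2 fold change of *Rgs9* was -0.23 (SE 0.10, 95% interval -0.45 to -0.02), and edgeR's adjusted p-value was 0.542. Over 14 alternatives the adjusted p-value ranged from 0.284 to 0.999.

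The other members overlapped between the genotypes. *Drd1* was at 167, 199.8 and 214 CPM in KO, beside 222, 194 and 230.1 CPM in WT, a log2 fold change of -0.15 (SE 0.11, 95% interval -0.39 to 0.09). *Drd2* was at 77.8, 94.7 and 99.7 CPM in KO, beside 103, 95.8 and 107 CPM in WT, a log2 fold change of -0.17 (SE 0.10, 95% interval -0.39 to 0.06). For both receptors KO replicate 1 was the lowest of the 6 samples, as it was for every other member except *Drd3*. *Drd3* was at 7.98, 8.61 and 10.6 CPM in KO, and its log2 fold change of 0.00 had a 95% interval from -0.48 to 0.48. *Adora2a* was at 165, 215 and 226 CPM in KO, with a log2 fold change of -0.14 (SE 0.12). Receptor levels thus differed by less than the samples did, and the 95% intervals reached down to -0.39 for *Drd1* and *Drd2*, -0.42 for *Adora2a* and -0.48 for *Drd3* on the log2 scale.

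The peptide genes overlapped as well. *Penk* was at 205, 221 and 232 CPM in KO (log2 fold change -0.04, SE 0.09), *Pdyn* at 204, 211 and 237 CPM (-0.17, SE 0.09) and *Tac1* at 128, 159 and 166.5 CPM (-0.08, SE 0.11). *Ppp1r1b* was at 226, 252 and 262 CPM in KO (-0.10, SE 0.08). For *Ppp1r1b* and the 3 peptide genes alike, KO replicate 1 was the lowest of the 6 samples. Adjusted p-values of these 4 in edgeR ran from 0.671 to 0.953.

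STR KO replicate 1 carried much of what difference there was. Averaged over the 9 members, its log2 level was 0.18 below the mean of the KO samples, the lowest deviation of the 12 brain samples. Without it the log2 fold changes were -0.14 for *Rgs9*, -0.13 for *Pdyn*, -0.07 for *Drd2*, -0.06 for *Drd1*, -0.05 for *Ppp1r1b*, -0.02 for *Adora2a*, 0.01 for *Penk*, 0.02 for *Tac1* and 0.08 for *Drd3*. *Rgs9* was thus still the lowest, with a smaller difference. This is the sample with the low cortical and high hypothalamic markers. Of the hypothalamic list 4 of 10 genes were tested, with a median log2 fold change of 3.10 in KO, and all 6 cortical markers were tested, with a median of -0.62. Without KO replicate 1 these medians were 1.42 and -0.16. None of these 10 genes was called with or without it. *Oxt* and *Avp* mark 2 kinds of hypothalamic cells. *Oxt* was at 45.0, 11.02 and 2.96 CPM in the KO samples and at 0.406 to 1.13 CPM in STR WT. *Avp* was at 71.3, 6.96 and 2.82 CPM in KO and at 0.542 to 1.70 CPM in WT. Both were highest in KO replicate 1, and the other KO samples also lay above the WT samples. Their part in the members' levels was not tested.

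**Figure D4:**
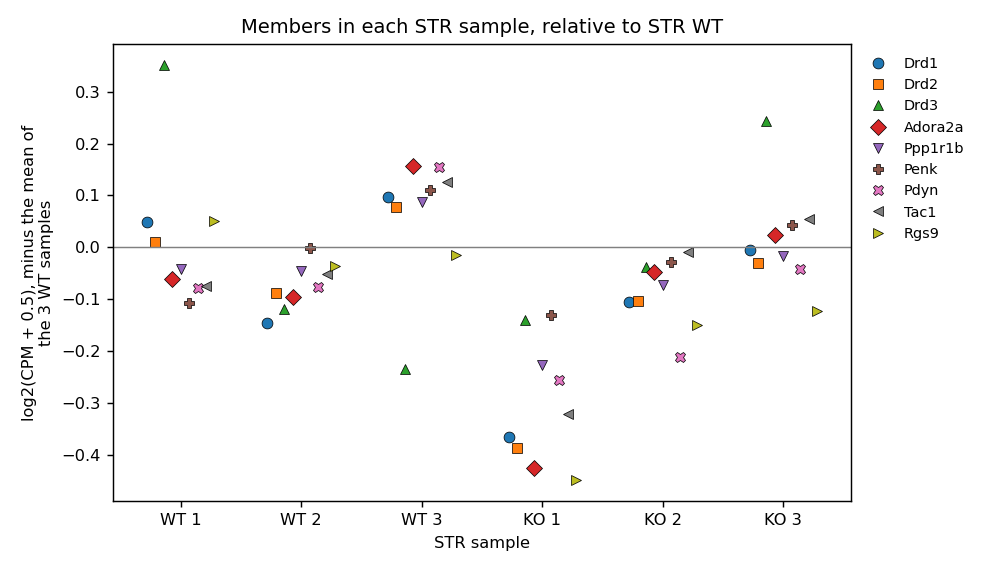
Log2(CPM + 0.5) of each member in each STR sample, as the difference from the mean of the 3 WT samples. In KO replicate 1 all 9 members lie below 0, while KO replicates 2 and 3 lie among the WT samples for most members and *Rgs9* is below 0 in all 3 KO samples.

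Of the companion lists no gene was called between KO and WT in STR, whether markers of both projection neuron kinds (13 tested, median log2 fold change -0.10), the dopamine and cAMP cascade (19 tested, median -0.08), direct pathway markers (6 tested, median 0.06) or indirect pathway markers (5 tested, median 0.13). The smallest adjusted p-values in edgeR among these were those of *Gpr6* (log2 fold change -0.29, SE 0.10, adjusted p = 0.453) and *Foxp1* (-0.29, SE 0.12, adjusted p = 0.522), and neither overlapped between the genotypes, as 6.25% of all genes were lower without overlap. *Foxp1* was barely apart, with 230.5 CPM in the highest KO and 231 CPM in the lowest WT sample. Without KO replicate 1 their log2 fold changes were -0.22 and -0.18, and the list medians were -0.01, -0.02, 0.01 and 0.14 in the same order as above.

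In the prefrontal cortex none of the 8 members tested was called either, among 98 genes called of 15364 (0.638%) in edgeR. *Drd3* had no read in any of the 6 samples and was not tested. DESeq2 called 182 genes and edgeR's exact test 375, again with no member. *Drd1* and *Drd2* were the 2 members at an unadjusted p-value under 0.05, which 1725 genes reached, and both were higher in KO without overlap. Over all genes tested, 9.95% were higher in KO without overlap and 7.40% were lower.

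*Drd1* was at 25.0, 19.4 and 20.6 CPM in the WT and at 28.5, 29.7 and 28.5 CPM in the KO samples. The log2 fold change was 0.39 (SE 0.12, 95% interval 0.14 to 0.65), and edgeR's adjusted p-value was 0.179. *Drd2* was at 0.981, 1.55 and 1.05 CPM in WT against 3.31, 1.96 and 1.93 CPM in KO. These levels rest on 30 reads in WT and 56 in KO over 3 samples each, and in WT replicate 2 and KO replicate 2 the count was the same, 16. The log2 fold change was 0.93 (SE 0.35, 95% interval 0.18 to 1.69), with an adjusted p-value of 0.309 in edgeR. WT replicates 1 and 3 had only 8 and 6 reads of *Drd2*. It thus passed the filter on low counts through its KO samples, where it is high. Its interval and its lack of overlap are therefore no support for a difference. For both receptors every KO sample thus lay above every WT sample, and the difference did not pass the threshold over all genes. Over the alternatives the adjusted p-value ran from 0.0781 to 0.522 for *Drd1* and from 0.201 to 0.780 for *Drd2*.

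The other 6 members overlapped. *Adora2a* was at 5.35, 6.855 and 4.815 CPM in KO, beside 6.13, 5.70 and 6.45 CPM in WT (log2 fold change -0.11, SE 0.20). *Rgs9* was at 19.9, 19.2 and 26.55 CPM in KO (0.15, SE 0.14), and its mean was raised by replicate 3 alone. *Penk* at 50.4, 46.0 and 54.1 CPM, *Pdyn* at 55.0, 52.1 and 52.55 CPM, *Tac1* at 27.75, 32.8 and 33.0 CPM and *Ppp1r1b* at 80.1, 81.6 and 81.7 CPM had log2 fold changes of -0.05, -0.02, 0.06 and -0.08. Adjusted p-values in edgeR ran from 0.772 to 0.971 for these 6. The 95% intervals of the peptide genes and *Ppp1r1b* lay between -0.28 and 0.37.

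**Figure D5:**
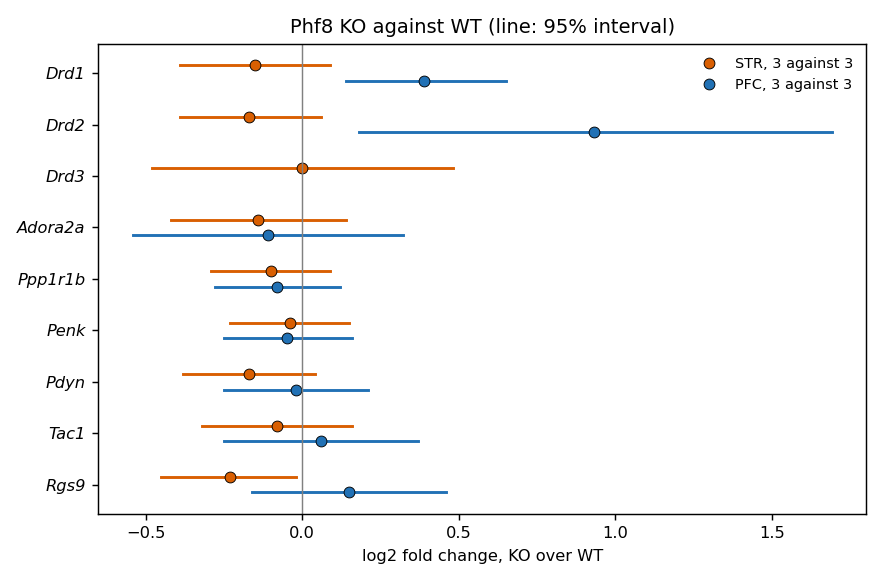
Log2 fold change of KO over WT for each member in STR and in PFC, with 95% intervals from edgeR before adjustment. In STR the interval of *Rgs9* alone lies below 0. In PFC the intervals of *Drd1* (0.14 to 0.65) and *Drd2* (0.18 to 1.69) alone lie above 0. *Drd2* passed the filter on low counts there through its KO samples, and *Drd3* could not be tested in PFC.

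The 2 genes of the companion lists that were called in PFC were *Rxrg*, at 4.62 ± 0.816 CPM in WT and 10.1 ± 1.25 CPM in KO (SD, n = 3; log2 fold change 1.11, SE 0.19, adjusted p = 0.0277 in edgeR), and *Grik3*, a kainate receptor gene, at 173 ± 11.9 and 237 ± 15.5 CPM (SD, n = 3; 0.42, SE 0.08, adjusted p = 0.0403 in edgeR). Genes that differ steeply between the regions did not move together in PFC KO. *Six3* was at 0.0967 to 0.174 CPM in WT and 0.275 to 0.636 CPM in KO, whereas *Gpr6* was at 1.39 to 3.29 and 1.38 to 1.78 CPM, *Rarb* at 13.8 to 15.6 and 14.0 to 15.6 CPM, and *Drd3* at 0 in both. The 13 markers of both projection neuron kinds summed to 1486 to 1652 CPM in WT and 1649 to 1745 CPM in KO, with 9 of the 12 tested above 0 and 1 called. Oligodendrocyte markers moved in the same samples: 4 of 6 were lower in PFC KO (*Mog*, *Mag*, *Mobp* and *Mal*, by 0.95, 0.60, 0.59 and 0.61 on the log2 scale), and their sum was 1828 to 2390 CPM in WT and 1488 to 1586 CPM in KO. The part of tissue composition in the levels of *Drd1* and *Drd2* was not tested.

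Whether the KO difference itself differed between the regions was tested over the 12 brain samples. No member was called, among 1 gene called of 16028 (0.00624%) in edgeR. *Drd1*, *Drd2* and *Rgs9* had the largest values. The KO difference in STR minus that in PFC was -0.57 (SE 0.16, adjusted p = 0.586) for *Drd1*, -1.12 (SE 0.33, adjusted p = 0.620) for *Drd2* and -0.41 (SE 0.17, adjusted p = 0.720) for *Rgs9* on the log2 scale in edgeR. For the other 5 members with reads in both regions it ran from -0.18 to -0.02. Without STR KO replicate 1 the values of *Drd1* and *Rgs9* were -0.46 and -0.29. The same contrast is the difference of the regional fold changes between KO and WT, since all these comparisons share the 12 samples. With the replicate number as a block over both regions, an alternative chosen after seeing the data, 12 genes were called, no member among them, and edgeR's adjusted p-values were 0.0928, 0.263 and 0.243 for *Drd1*, *Drd2* and *Rgs9*.

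Cultured cells held little of most of these transcripts, *Rgs9* in NPCs being the exception, with 18.0 CPM on average in WT beside 19.2 CPM in PFC WT, from libraries that were scaled apart. In NPCs 4 members passed the filter on low counts and were tested, and none was called among 0.00697% of 14351 genes. That share is 1 gene. Blocking on the replicate number gave 3 genes, no member among them. *Rgs9* was the most abundant there, at 30.4, 6.26 and 17.4 CPM in WT against 15.2, 14.0 and 22.25 CPM in KO. *Ppp1r1b* was at 1.42 to 2.29 CPM in WT and 2.61 to 4.84 CPM in KO (log2 fold change 1.02, SE 0.31), and *Drd1* at 0.918 to 0.980 and 0.282 to 0.625 CPM, from 39 and 18 reads in all (-1.08, SE 0.37). For *Ppp1r1b* and *Drd1* the genotypes did not overlap, in opposite directions, and edgeR's adjusted p-values were 1. *Drd1* passed the filter on low counts through the WT samples alone, where it is high. Its lack of overlap is therefore no support for a difference. Of all genes tested in NPCs, 3.65% were higher and 4.69% were lower in KO without overlap. Replicate 2 of each genotype, the lowest for *Rgs9* and *Adora2a*, also stood apart in oligodendrocyte markers, which summed to 35.8 and 150.2 CPM there and to 1224 to 2100 CPM in the other 4 NPC samples. Their part was not tested. *Adora2a* varied more within a genotype than between them, at 0.417 to 3.45 CPM in WT and 1.06 to 3.46 CPM in KO (0.28, SE 0.72). *Penk* stayed at or below 1.41 CPM in every NPC sample, and *Drd2*, *Drd3*, *Pdyn* and *Tac1* at or below 0.156 CPM.

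In ESCs 4 members were tested and none of the 15080 genes was called (0.00%) in edgeR, with 171 genes at an unadjusted p-value under 0.05, no member among them. DESeq2 called 3 genes and edgeR's exact test 2, none a member. *Rgs9* was at 11.8 and 7.10 CPM in WT against 11.8 and 7.73 CPM in KO. *Penk* was at 1.10 to 3.88 and 1.25 to 3.87 CPM, *Pdyn* at 2.34 to 3.14 and 2.10 to 2.14 CPM, and *Ppp1r1b* at 0.732 to 0.848 and 1.01 to 1.47 CPM. Their log2 fold changes were 0.05 for *Rgs9*, 0.04 for *Penk*, -0.36 for *Pdyn* and 0.65 for *Ppp1r1b*, with adjusted p-values of 1 in edgeR. *Ppp1r1b* passed the filter on low counts through its KO samples, where it is higher. *Drd1*, *Drd2*, *Drd3* and *Tac1* did not exceed 0.170 CPM in any ESC sample, and *Adora2a* was at 0.295 to 0.764 CPM. Summed over the 9 members, 0.000924% to 0.00365% of the counts fell on them in culture, 0.0254% to 0.0273% in PFC and 0.140% to 0.186% in STR.

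Finally, genes whose level followed the members from sample to sample were ranked. Each of the 12 brain samples was taken as its deviation from the mean of its region and genotype on the log2(CPM + 0.5) scale, and Pearson's r was computed with the mean of the 9 members over 12939 genes. The 5 leading genes outside the list were *Zfp763* (r = 0.975), *Slmap* (0.952), *Foxp1* (0.950), *Gm14295* (0.938) and *Dsg1c* (0.937). *Foxp1*, a transcription factor of striatal neurons, also belongs to the list of markers of both kinds. *Zfp763* and *Gm14295* belong to families of near-identical zinc finger genes, so their counts are uncertain. The 5 leading genes are the highest of the 12939 compared, so their r is high by selection. Over the 12 samples r of the 9 members, each part of the mean, ran from 0.405 for *Drd2* to 0.728 for *Drd1*. Over the 6 STR samples alone r was 0.950 to 0.986 for the 5 leading genes. There it was 0.993 for *Drd2*, 0.975 for *Drd1*, 0.955 for *Adora2a*, 0.692 for *Penk* and 0.427 for *Drd3*. The STR samples, and KO replicate 1 among them, had the largest deviations, so the values describe these samples, which share depth and dissection, and no test was run. Without KO replicate 1 r was 0.718 for *Dsg1c*, 0.808 for *Foxp1* and 0.898 to 0.948 for the other 3.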

How the data were processed

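Total RNA of 22 mouse samples had been made into TruSeq RNA libraries and sequenced. Per the labels and the study's methods, STAR was the aligner, mm10 the genome build and HTSeq the counter, with gene models of Ensembl release 75. Each sample has a deposited table of read counts by gene, which the authors did not normalize. Lines for reads on no gene were left out of library sizes and tests. They held 9.38% to 15.4% (no gene), 2.52% to 2.67% (ambiguous) and 7.62% to 8.90% (not unique) in brain, and 5.35% to 9.21%, 1.29% to 1.60% and 33.2% to 45.5% in cultured cells. File names mark the cultured counts as unstranded, and the strand setting of the brain counts and any removal of duplicate reads are not given in the sources used here.

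Gene symbols and exon lengths came from GENCODE mouse release 21 (37607 of 39179 identifiers matched, with 99.709% of the counts), and promoter windows from RefSeq. Groups and replicate numbers came from the labels. Replicates of a group differed by more than sampling noise in every pair (chi-square over its degrees of freedom from 1.83 to 37.3), so each counted once.

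Each comparison was fitted on the samples it compares, with edgeR 4.0.16 in R 4.3.3 (quasi-likelihood test, robust, TMM, filterByExpr), Benjamini-Hochberg adjustment over all genes tested and a threshold of 0.05. The scripts were tested on simulated data. Alternatives were DESeq2 1.42.0, size factors by RLE, a filter of 10 counts in each sample, none at all, edgeR's exact or likelihood ratio test, no robust estimation, a fold threshold of 1 (log2), all brain groups in 1 fit, the replicate number as a block, and each replicate left out. The pseudocount was 0.5. The members, companion lists and marker lists were chosen with earlier results of these data known. All 9 members are named, and from a companion list up to 4 genes with the smallest adjusted p-values. Some genes that this rule takes are not reported here. Others that are singled out (*Gpr6*, *Rarb* and *Six3* in PFC, *Oxt* and *Avp*) were chosen after their values were seen.

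Deviations from group means were correlated to see whether equal replicate numbers pair samples. They did between STR and PFC (r of 0.189 to 0.414 in WT and 0.148 to 0.201 in KO, 3 pairs each) and between WT and KO NPCs (0.538 to 0.721), which comes from the data and from no label. They did not between WT and KO in STR (-0.0209 to 0.135) or PFC (-0.0314 to 0.0613), and the 2 ESC pairs (0.888) are too few to tell. Total counts limit the low genes, and intervals from counts cover counting error only.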

Additional observations from a re-analysis of the deposited data

How the results depend on the processing

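Under 12 to 21 alternatives per comparison no member changed its call: 7 to 9 members were called higher in STR in WT, 8 to 9 in KO, and 0 in every comparison of KO with WT and in the test between regions. The counts of 7 and 8 come from requiring 10 counts in every sample, which left *Drd2* and *Drd3*, or *Drd3*, untested. The replicate block changed no member's call and called 5405 genes in the WT and 4761 in the KO regional comparison, against 3791 and 4301 without it. Counts over all genes moved more: from 0 to 104 in STR, 2 to 379 in PFC (98 as reported), 0 to 5 in NPCs, 0 to 513 in ESCs (513 with the replicate block) and 1 to 26 between regions. Values of companion genes and lists without STR KO replicate 1 were added after seeing the data.

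The sign of small log2 differences turned in 29 settings, none of them called. The replicate block gave 0.10 for *Rgs9* in NPCs. Leaving out 1 sample at a time, KO minus WT ranged in STR from -0.09 to 0.02 for *Penk* and from -0.16 to 0.02 for *Tac1*. In PFC it ranged from -0.17 to 0.02 for *Ppp1r1b*, -0.13 to 0.06 for *Pdyn*, -0.10 to 0.16 for *Tac1*, -0.11 to 0.01 for *Penk* and -0.01 to 0.24 for *Rgs9*. In NPCs it ranged from -0.47 to 0.53 for *Rgs9* and -0.19 to 0.82 for *Adora2a*, and in ESCs from -1.03 to 1.23 for *Penk* and -0.26 to 0.44 for *Rgs9*. The difference between regions ranged from -0.16 to 0.12 for *Adora2a*, -0.15 to 0.06 for *Ppp1r1b* and -0.06 to 0.06 for *Penk*. *Drd1* kept its sign in PFC (0.32 to 0.51), as did *Drd2* (0.63 to 1.22) and *Rgs9* in STR (-0.29 to -0.14). *Drd2* had 6 to 26 reads in a PFC sample, and this depth limits its value.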
